A study of Homo sapiens with 62 samples.

Results

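The 9 genes described here are keratins of stratified epithelium, KRT4, KRT5, KRT6A, KRT6B, KRT13, KRT14, KRT15, KRT16 and KRT17. They were chosen by name, and each was present among the 29794 genes of the tables. The tables held 46 other keratin genes. SLAM-seq was used to measure new transcripts. Cells were fed the nucleoside 4-thiouridine, which is alkylated after extraction and then read as C in place of T, so that T>C reads mark transcripts made while it was present. Every library came from a human pancreatic ductal adenocarcinoma line, AsPC-1 (classical subtype) or T3M-4 (basal-like subtype). In all of them, controls included, the endogenous KLF5 gene had been targeted with a guide RNA, and a cDNA of the transcription factor KLF5 fused to FKBP12-F36V and FLAG had been added from a lentivirus, so that the cells were selected pools. The degrader dTAGv-1 (dTAG) was compared with its inactive analogue dTAGv-1-NEG (NEG), with 10 libraries a group in AsPC-1 and 4 in T3M-4. CB-6644, an inhibitor of the RUVBL1/2 ATPases, was compared with the solvent DMSO, with 5 libraries a group in AsPC-1 and 4 in T3M-4. The CDK9 inhibitor NVP-2 had 4 libraries in each line and was compared with the same DMSO libraries. Treatment lasted 4 h, and a further AsPC-1 pair of DMSO and CB-6644 groups, with 4 libraries each, was treated for 12 h, which gave 62 libraries in all. Library numbers such as 1.2 were read as experiment and then library, which the labels do not state. In T3M-4 the experiments so read coincided with the labelled batches. The labels do not say whether libraries of 1 experiment came from separate cultures, so p-values measure the spread between libraries, which may be technical.

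Keratins form the intermediate filaments of epithelial cells, and each filament pairs an acidic type I with a basic type II chain. Pancreatic ducts normally use the simple keratins, whereas the basal layer of skin and oesophagus uses KRT5 with KRT14 and KRT15, and the layers above it in non-cornified epithelium use KRT4 with KRT13. KRT6A, KRT6B, KRT16 and KRT17 are keratins of hair follicles, oral epithelium and wounded or proliferating epidermis. Several of these genes, among them KRT5, KRT6A and KRT17, are markers of basal-like pancreatic cancer.

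The type II members KRT4, KRT5, KRT6A and KRT6B lay within 367 kb of chromosome 12 (GRCh38, chr12:52446651-52814116), and the type I members KRT13 to KRT17 within 124 kb of chromosome 17 (chr17:41500981-41624842). All 9 genes were on the minus strand. Reads were counted over 3′UTR exons, whose length per gene ran from 159 bases in KRT14 (ENSG00000186847.6, chr17:41582279-41586895) to 1683 bases in KRT4 (ENSG00000170477.13, chr12:52806549-52814116). T made up 19.1% to 31.4% of those bases, so levels were compared between libraries and not between keratins. Of the 50-base stretches in these 3′UTRs, the only ones shared with another keratin record were 13 of the 111 of KRT16 (11.7%), shared with the pseudogene KRT16P3. KRT6A and KRT6B shared none. Records of other genes overlapped KRT13, KRT15 and KRT17, and the strand used in counting is not given in the sources used here. The T>C total of KRT15 was a multiple of 3 in 59 of 62 libraries (95.2%), where chance gives 33.3%, and its all-reads total in 23 of 61 (37.7%). How this arose was not tested, and it could affect the counting error and the labelled shares of KRT15.

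Proteins of the KLF family bind CACCC boxes and related GC-rich sequence. In the RefSeq promoter table (GRCh38.p14), 2 of the 9 members were matched, KRT4 and KRT5, and the 250 bases before their starts were searched on both strands. CACCC occurred 1 time in each, and 25 bases around it are printed 5′ to 3′ on the gene's strand because KLF5 was the factor degraded. Capitals mark the 5 letters, which in KRT4 are the reverse complement of CACCC.
KRT4, chr12:52814230-52814254, minus strand: catgctcaacGGGTGcgggaaggat
KRT5, chr12:52520527-52520551, minus strand: aaagcgtttgCACCCcacaccactg
The match began 128 bases before the RefSeq start of KRT4 and 147 bases before that of KRT5. The GENCODE record of KRT5 begins further upstream, at chr12:52520530, inside the searched window. CACCC was in 54.7% of the 35116 promoter windows of that length, so the match does not set these 2 genes apart. Neither window held the GC box GGGCGG (in 42.6% of all windows), the TATA box TATAAA (in 10.7%) or the AP-1 motif TGANTCA (in 6.57%). The AP-2 motif GCCNNNGGC, found in 19.8% of windows, occurred 1 time in that of KRT4.

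The depth of the tables was 2240998 to 18311982 T>C reads and 82676553 to 200298262 reads in all for AsPC-1, and 3714015 to 27982537 T>C reads and 111132257 to 244524608 reads in all for T3M-4. In T3M-4 the summed level of the basal-like markers TP63, S100A2, FAT2, LAMA3, MIR205HG and CDH3 was 2783 to 5067 CPM, where CPM is the reads of a gene per 1000000 reads of the library's own total, and it was 23.4 to 83.8 CPM in AsPC-1. Of the classical markers, LGALS4 was at 65.1 to 197 CPM in AsPC-1 and at most at 0.455 in T3M-4, whereas GATA6, TFF1 and AGR2 overlapped between the lines. Markers of leukocytes, fibroblasts and endothelium summed to at most 19.5 CPM in any library. Of these, LUM was at 2.45 to 19.5 CPM in AsPC-1 and COL1A1 at 4.06 to 8.79 in T3M-4, each present in every library of that line. A degron acts on the protein, so the KLF5 transcript gives no check of degradation. In 5 AsPC-1 libraries the keratins themselves stood apart from the other 36 with all-reads values. These were CB-6644 12 h 2, DMSO 12 h 2, dTAG 3.2, NEG 3.2 and NVP-2 1.2. In these, KRT13 was at 9.30 to 12.0 all-reads CPM against 0.0180 to 0.387 in the others. KRT17 was at 1.94 to 2.24 against at most 0.351, KRT6A at 1.32 to 1.59 against at most 0.263, KRT5 at 0.442 to 0.504 against at most 0.113, and KRT14 at 0.354 to 0.441 against at most 0.111. KRT6B was not among them, at 0 to 0.0204 against at most 0.155. In each of the 5, the median over 13 genes that were high in T3M-4 and near 0 in the other AsPC-1 libraries was 0.317% to 0.382% of the T3M-4 level. Of the 13 genes 4 were keratins, and over the others the median was 0.324% to 0.408%. The origin of these reads was not tested, and results that rest on these libraries are given with and without them.

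The keratins were compared first between the lines, to give the level from which each treatment started. All 9 were detected in every T3M-4 library. Only KRT15 and KRT16 were measured well above 0 throughout AsPC-1, where KRT4 reached down to levels near 0. All 9 together made up 0.217% to 0.750% of all reads in T3M-4 and 0.000564% to 0.00333% in AsPC-1.

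Over the 20 T3M-4 libraries, all-reads CPM ran from 1463 to 5941 for KRT13, from 255 to 1117 for KRT17, from 275 to 693 for KRT6A, from 49.7 to 478 for KRT5 and from 53.2 to 316 for KRT14. Over the 36 AsPC-1 libraries that did not stand apart, none of these 5 exceeded 0.387 CPM. No library of 1 line overlapped with the other for these 5 genes, with or without the libraries that stood apart. KRT15, a keratin of basal cells, was at 21.0 to 48.4 CPM in T3M-4 and at 4.58 to 15.2 in AsPC-1, so that the lines did not overlap. KRT4 was at 3.4 to 27.2 CPM in T3M-4 and at 0.0714 to 3.03 in AsPC-1, again without overlap. KRT16, the type I partner of KRT6, was at 0.989 to 9.59 CPM in T3M-4 and at 0.581 to 7.39 in AsPC-1, and the lines overlapped. KRT6B was at 1.02 to 3.98 CPM in T3M-4 and at most at 0.155 in each AsPC-1 library.

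**Figure D1:**
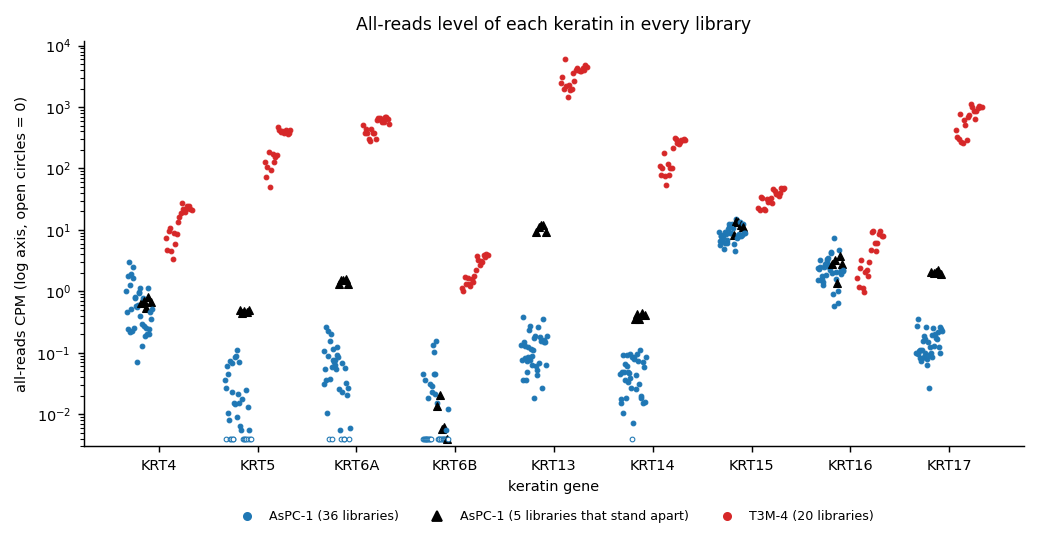
All-reads CPM (log axis) of each of the 9 keratins, with 1 point per library: blue circles are 36 AsPC-1 libraries, black triangles the 5 AsPC-1 libraries that stand apart, and red circles the 20 T3M-4 libraries. Open circles at the bottom are 0; KRT15 and KRT16 are the members whose levels are closest in the 2 lines, and for KRT13 the triangles lie at 9.30 to 12.0 CPM, between the lines.

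Solvent-treated T3M-4 was tested against solvent-treated AsPC-1 at 4 h, 4 against 5 libraries, with edgeR's quasi-likelihood test and Benjamini-Hochberg adjustment over all genes, as in all count tests below. All 9 keratins were called higher in T3M-4 in T>C reads, where 26.8% of 13044 genes were called higher, and 8 of 9 in all reads, where 30.5% of 15464 were. KRT5, KRT6A, KRT6B, KRT13, KRT14 and KRT17 passed the filter on low counts only through T3M-4, so their calls support nothing beyond the levels above. In T>C reads the same held for KRT4, which had 0 T>C counts in some of these AsPC-1 libraries. There KRT4 differed by 3.1 on the log2 scale (SE 0.93, adjusted p = 0.0173). KRT15 was higher by 1.95 (SE 0.30, adjusted p = 0.000305) and KRT16 by 1.93 (SE 0.46, adjusted p = 0.00515). The call of KRT4 was lost without the T3M-4 DMSO library 2.1 (adjusted p = 0.0532), and that of KRT16 with the library number as a block (log2 fold change 1.65, adjusted p = 0.0637). In all reads KRT16 differed by 0.91 (SE 0.39, adjusted p = 0.0698), and it was called without the T3M-4 DMSO library 1.1 (adjusted p = 0.0203) or 1.2 (adjusted p = 0.0495). Summed over the libraries, all-reads CPM of KRT4 was 15.2-fold higher in T3M-4 and that of KRT15 4.36-fold higher. KRT6B had 0 T>C counts in the 5 AsPC-1 libraries, and with a floor of 3 counts over the group it was at least 38.9-fold higher in T3M-4. The other 5 had 2 to 27 T>C counts in total in these AsPC-1 libraries, so only their levels are given. With 1 line per subtype, this compares AsPC-1 with T3M-4 and not the subtypes.

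In T3M-4 the control libraries of the 2 experiments differed for most keratins. The mean T>C CPM of the NEG libraries was higher in experiment 2 than in experiment 1 by 5.35-fold for KRT16, 2.87-fold for KRT4, 2.79-fold for KRT6B, 2.59-fold for KRT14, 2.37-fold for KRT5 and 2.35-fold for KRT17. KRT13, KRT6A and KRT15 differed least, by 1.5-fold, 1.44-fold and 1.25-fold, and for KRT15 the NEG libraries of the experiments overlapped. In DMSO the same ratio was 1.03 for KRT15 and 0.835 for KRT13, and 1.42 to 3.1 for the other 7. Treated libraries are therefore set beside the controls of their own experiment as well as beside all 4, and in every list below the values run in the order 1.1, 1.2, 2.1 and 2.2. The inactive degrader was also compared with the solvent. No keratin was called in either line, where 0% of 12261 genes in AsPC-1 and 0% of 13465 in T3M-4 were called by edgeR. At an unadjusted p under 0.05 there were 1081 and 255 genes, and DESeq2 called 49 and 2. In T3M-4 the log2 differences between NEG and DMSO ran from -0.48 (SE 0.31) for KRT13 to 0.13 (SE 0.55) for KRT6B.

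Loss of KLF5 was examined first in T3M-4, the line that makes these keratins. After 4 h of dTAG the T>C level of KRT6A fell in the main test, and all 9 keratins had fold changes below 0. KRT4, KRT13, KRT14, KRT16 and KRT17 were called lower together with KRT6A once the libraries were paired by number, whereas KRT5, KRT15 and KRT6B were not. In 7 of the 9, every treated library lay below both controls of its own experiment. In all reads no keratin was called over the same 4 h.

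KRT6A, a type II keratin of activated epidermis, was at 374, 338, 522 and 502 T>C CPM in the NEG libraries and at 135, 110.2, 164 and 161 in the dTAG libraries. Each dTAG library lay below each NEG library, and the log2 fold change was -1.68 (SE 0.22, adjusted p = 0.00925). It was the only member called lower in this test, in which 0.745% of 13424 genes were called lower. KRT13 was at 1423, 1165, 1995 and 1895 T>C CPM in NEG and at 611, 488, 942 and 943 in dTAG. The groups did not overlap, with a log2 fold change of -1.19 (SE 0.27, adjusted p = 0.0981). KRT4, the partner of KRT13, was at 7.47, 4.74, 17.8 and 17.3 in NEG and at 0.648, 0.0715, 2.07 and 4.67 in dTAG. Again the groups did not overlap, and the log2 fold change was -2.73 (SE 0.89, adjusted p = 0.357). Absence of overlap was seen in these 3 of the 9 keratins and in 3.08% of all genes tested.

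For the basal cell pair the groups overlapped. KRT14 was at 99.1, 58.0, 194 and 213 T>C CPM in NEG and at 17.6, 16.4, 61.9 and 62.7 in dTAG (log2 fold change -1.90, SE 0.55, adjusted p = 0.244). In each experiment the dTAG libraries lay below NEG, and the groups overlapped only across experiments. KRT5 was at 144, 132, 329 and 326 in NEG and at 23.6, 60.6, 242 and 308 in dTAG (log2 fold change -0.62, SE 0.68, adjusted p = 0.999). The reduction of KRT5 was large in experiment 1 and small in experiment 2, where the log2 fold change within the experiment was -0.31 (SE 0.17) against -1.78 (SE 0.40). Its partner KRT14 showed -1.77 (SE 0.17) and -2.27 (SE 0.32) in the same experiments.

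KRT17, a type I keratin of activated epithelium, was at 544, 508, 1151 and 1319 T>C CPM in NEG and at 70.0, 149, 455 and 662 in dTAG. KRT16 was at 2.01, 2.62, 13.0 and 11.8 in NEG and at 0.463, 0.107, 3.55 and 1.62 in dTAG. Both were below the controls of their own experiment in every dTAG library, with log2 fold changes of -1.47 (SE 0.62) and -2.44 (SE 0.95) and adjusted p = 0.637 and 0.546. KRT15 was at 29.1, 26.6, 29.0 and 40.9 in NEG and at 11.5, 12.7, 19.5 and 36.7 in dTAG, where library 2.2 lay among the controls (log2 fold change -0.71, SE 0.37). KRT6B, the close relative of KRT6A, was at 1.06, 1.43, 3.1 and 3.84 in NEG and at 2.13, 1.11, 1.78 and 1.76 in dTAG, and its dTAG libraries of experiment 1 did not lie below their controls. Over all genes, 5.94% were below both controls within each experiment, against the 7 of 9 keratins.

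**Figure D2:**
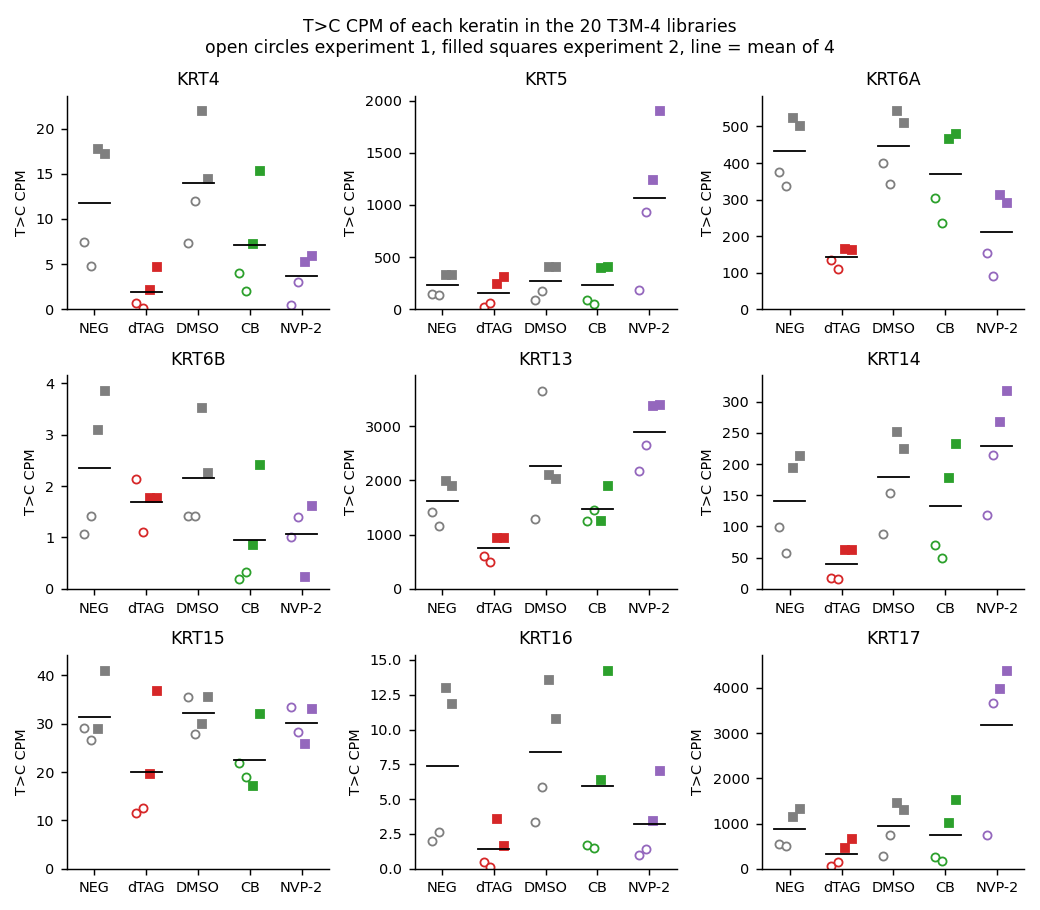
T>C CPM of each keratin (1 panel per gene, linear axis from 0) in the 5 treatment groups of T3M-4. Open circles are the 2 libraries of experiment 1, filled squares those of experiment 2, and the line is the mean of 4; the squares of NEG, dTAG and DMSO lie above the circles for KRT4, KRT5, KRT14, KRT16 and KRT17, and the dTAG points of KRT6A lie at 110.2 to 164.

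Same-numbered dTAG and NEG libraries deviated together from their group means, as libraries of the same experiment may do whatever their number. The number was fitted as a block (replicate block). In that fit 6 of the 9 keratins fell, where 1.91% of genes were called lower. The log2 fold changes were -3.35 for KRT4 (SE 0.54, adjusted p = 0.0193), -2.77 for KRT16 (SE 0.48, adjusted p = 0.0248), -2.0 for KRT14 (SE 0.17, adjusted p = 0.0021), -1.83 for KRT17 (SE 0.30, adjusted p = 0.0193), -1.67 for KRT6A (SE 0.11, adjusted p = 0.00157) and -1.22 for KRT13 (SE 0.10, adjusted p = 0.0021). KRT5, KRT15 and KRT6B were at -1.11 (SE 0.37, adjusted p = 0.254), -0.85 (SE 0.22, adjusted p = 0.127) and -0.41 (SE 0.56, adjusted p = 0.835). Those 3 were not called, which does not show that they were unaffected. The approximate 95% interval of the KRT5 fold change in the main test ran from -1.95 to 0.71. DESeq2 without a block called 4 of the 9, KRT4, KRT6A, KRT13 and KRT14.

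The labelled share, the percentage of a gene's reads that carry T>C conversions, does not depend on the scaling of the library. It was tested with limma on log2 odds. For KRT14 the share was 10.7%, 9.95%, 8.16% and 8.89% in NEG and 3.0%, 4.39%, 3.17% and 2.94% in dTAG. For KRT4 it was 11.0%, 10.7%, 8.94% and 8.64% in NEG and 1.80%, 0.299%, 1.34% and 2.66% in dTAG. KRT6A went from 8.85% to 12.0% in NEG to 3.56% to 5.72% in dTAG. In these 3 and in KRT5, KRT13, KRT16 and KRT17 no dTAG library reached a NEG library, which makes 7 of 9 keratins against 2.12% of the 13558 genes tested. The same 7 lay below their controls within both experiments, as did 4.03% of genes. No keratin was called in the share, in which 0.0148% of genes were called lower. The smallest adjusted p was 0.0632, for KRT14 (log2 odds difference -1.59, SE 0.20). KRT5 differed by -0.50 (SE 0.21), with shares of 5.99% to 9.61% in dTAG and 9.67% to 13.7% in NEG, and the shares of KRT6B and KRT15 overlapped. The median difference over all genes was 0.08.

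**Figure D3:**
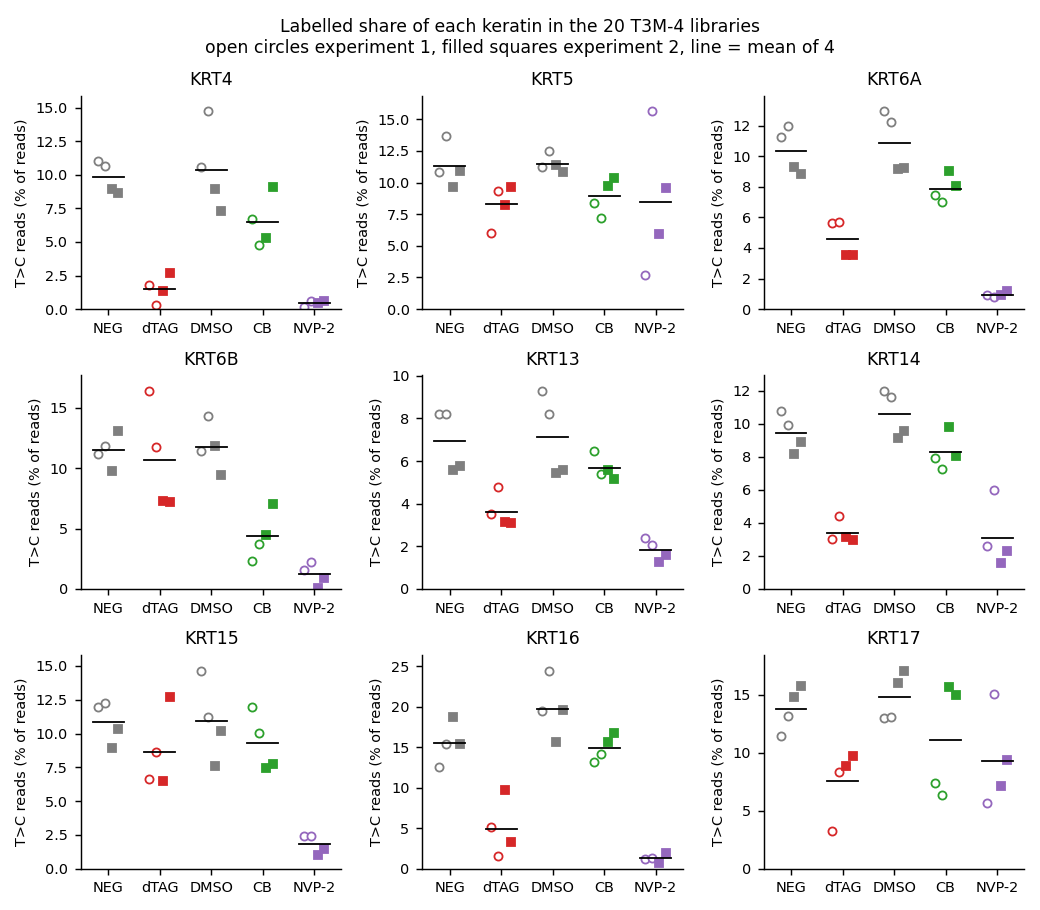
Labelled share (% of the gene's reads that are T>C reads, linear axis from 0) of each keratin in the 20 T3M-4 libraries, with symbols as in the plot of T>C CPM. The dTAG points lie below all NEG points in every panel except KRT6B and KRT15, and the NVP-2 points of KRT5 and KRT17 spread up to the controls whereas those of the other 7 keratins lie at or below 5.96%.

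In all reads, none of the 9 was called after dTAG, where 0.0127% of 15727 genes were called lower. At an unadjusted p under 0.05 there were 533 genes, and DESeq2 called 70, with no keratin among them. The log2 fold changes ran from -0.18 (SE 0.39) for KRT13 to -0.82 (SE 0.71) for KRT16. KRT6A was at 432, 373, 684 and 693 all-reads CPM in NEG and at 303, 275, 579.7 and 562 in dTAG, so each dTAG library was lower than its counterpart although the groups overlapped.

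In AsPC-1, 2 keratins had enough T>C reads to be tested after dTAG, KRT15 and KRT16. KRT16 fell and KRT15 was not called. The T>C level of KRT16 was 0.707 to 4.91 CPM over 10 NEG libraries with a median of 3.13, and 0 to 1.57 CPM over 10 dTAG libraries with a median of 0.745. The log2 fold change was -2.25 (SE 0.52, adjusted p = 0.0174), where 1.94% of 11696 genes were called lower. The groups overlapped between 0.707 and 1.57 CPM. Within the 3 experiments, the mean was 0.399 in dTAG against 2.15 in NEG, 1.32 against 3.56, and 0.499 against 3.54. Without the libraries dTAG 3.2 and NEG 3.2 the fold change was -2.32 (adjusted p = 0.0372). In the libraries labelled batch 1 alone it was -1.89 (adjusted p = 0.281) and in batch 2 alone -2.79 (adjusted p = 0.326), so the call needs both. The labelled share of KRT16 was 3.68% to 13.3% in NEG and 0% to 5.51% in the 9 dTAG libraries with both tables (log2 odds difference -2.27, SE 0.50, adjusted p = 0.00348). The shares of KRT15 (-0.46, SE 0.24) and KRT13 (0.32, SE 0.76, on few counts) were not called. Shares were lower in general after dTAG in this line, where 39.6% of 11907 genes were called lower, the median difference was -0.33, and T>C reads made up 7.58% to 8.67% of a library against 7.93% to 10.1% in NEG.

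KRT16 was also called lower in all reads in AsPC-1, from 1.86 to 4.67 CPM in NEG with a median of 2.66 to 0.653 to 2.70 in dTAG with a median of 1.39. The log2 fold change was -1.0 (SE 0.23, adjusted p = 0.0448), where 0.682% of 13931 genes were called lower. KRT4, KRT13, KRT15 and KRT17 were not called, at -0.46 (SE 0.48), 0.08 (SE 1.27), -0.19 (SE 0.18) and -0.10 (SE 0.79). The KRT16 call was lost in 14 of the 19 fits that left out 1 library (adjusted p up to 0.0967) and without the libraries that stood apart (-0.95, adjusted p = 0.152). KRT15 was at 3.83 to 17.9 T>C CPM in NEG and at 3.85 to 24.7 in dTAG, and the groups overlapped over nearly the whole range (log2 fold change -0.17, SE 0.31, adjusted p = 0.913). KRT4 was too low to be tested, with 0 T>C counts in 9 of the 10 dTAG libraries and 4 counts in the other. Whether dTAG acted differently in the lines was tested as an interaction. The difference, T3M-4 minus AsPC-1, was -0.17 (SE 1.09) for KRT16 and -0.53 (SE 0.55) for KRT15. Neither was called, and 0.0426% of 14088 genes were. The approximate 95% interval of that difference for KRT16 ran from -2.31 to 1.97.

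**Figure D4:**
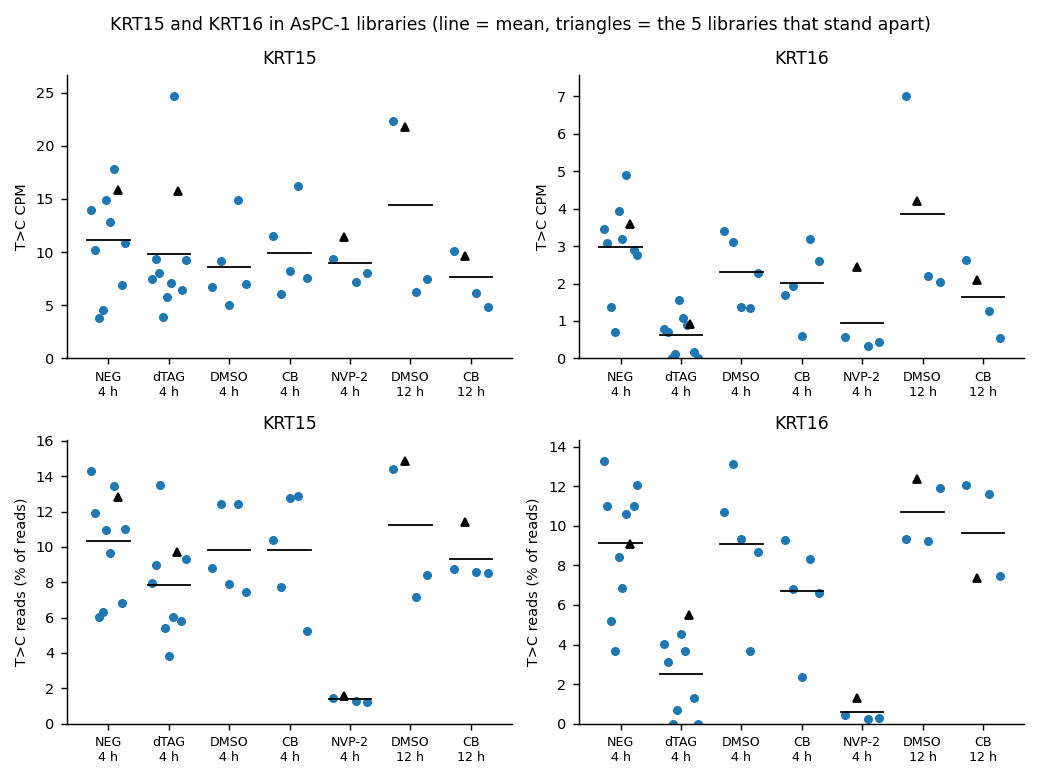
T>C CPM (upper panels) and labelled share in % (lower panels) of KRT15 and KRT16 in the 7 AsPC-1 groups, on linear axes from 0. Points are libraries, triangles the 5 libraries that stand apart, and lines group means; KRT16 lies at 0 to 1.57 T>C CPM in dTAG, against 0.707 to 4.91 in NEG, whereas KRT15 overlaps.

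RUVBL1/2 inhibition was examined next. With CB-6644 in T3M-4, no keratin was called in T>C reads, in all reads or in the labelled share, although all 9 had T>C fold changes below 0. The CB-6644 library 1.2 lay furthest below the control of its number in KRT4, KRT5, KRT14 and KRT17, whereas library 2.2 was close to its controls. In T>C reads 0% of 13444 genes were called by edgeR, 569 had an unadjusted p under 0.05, and DESeq2 called 5.

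KRT17 was at 279, 757, 1446 and 1308 T>C CPM in DMSO and at 249.6, 182, 1002 and 1519.6 in CB-6644 (log2 fold change -0.39, SE 0.71). KRT5 was at 83.4, 176, 404 and 400.0 in DMSO and at 83.6, 46.6, 394 and 399 in CB-6644 (-0.23, SE 0.72), and its partner KRT14 at 87.3, 153, 252 and 224 against 69.9, 50.1, 178 and 231 (-0.47, SE 0.52). For KRT17 and KRT14 libraries 1.1 and 2.1 were also below both controls of their experiment, and the DMSO library 1.2 was above 1.1 in all 3. KRT13 was at 1292, 3641, 2099 and 2018 in DMSO and at 1259, 1455, 1243 and 1899.5 in CB-6644 (-0.72, SE 0.31). The DMSO library 1.2 was the highest for KRT13, and its 9 keratins summed to 5115 T>C CPM against 2189 in 1.1. KRT15 was at 35.6, 27.8, 29.8 and 35.5 in DMSO and at 21.9, 19.0, 17.2 and 32.0 in CB-6644 (-0.60, SE 0.24). KRT6A, at 399, 341, 541 and 509 in DMSO and at 304, 235, 466 and 479.8 in CB-6644, was the 1 member of 9 below both controls within each experiment (-0.33, SE 0.30), beside 3.1% of all genes. KRT4 was at 7.33, 12.0, 21.9 and 14.4 in DMSO and at 4.00, 1.95, 7.19 and 15.3 in CB-6644 (-1.01, SE 0.59), and KRT16 at 3.33, 5.87, 13.6 and 10.7 against 1.72, 1.48, 6.34 and 14.2 (-0.52, SE 0.73). The adjusted p-values of the 9 keratins were 0.994 to 0.999.

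The largest change after CB-6644 was in KRT6B, a minor keratin of this line. Its labelled share was 11.4%, 14.3%, 11.9% and 9.44% in DMSO and 2.29%, 3.73%, 4.47% and 7.02% in CB-6644, on 4, 5, 17 and 41 T>C counts. The groups did not overlap, and the log2 odds difference was -1.57 (SE 0.33, unadjusted p = 0.00154, adjusted p = 0.999). Its T>C level was 1.42, 1.41, 3.52 and 2.26 CPM in DMSO and 0.202, 0.337, 0.848 and 2.41 in CB-6644 (log2 fold change -1.20, SE 0.78). The shares of KRT5 and KRT6A did not overlap either, at 10.9% to 12.5% against 7.22% to 10.3% for KRT5 and at 9.16% to 12.9% against 7.02% to 9.03% for KRT6A. That made 3 of 9 keratins, against 1.28% of the 13511 genes tested. In the share 0% of genes were called, with 386 at an unadjusted p under 0.05, and in all reads 0.0127% of 15761 were, with fold changes of the keratins between -0.61 and 0.02.

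In AsPC-1, CB-6644 gave no call for KRT15 or KRT16 at either time. At 4 h KRT16 was at 1.35 to 3.41 T>C CPM in DMSO and at 0.606 to 3.18 in CB-6644 (log2 fold change -0.24, SE 0.46), and KRT15 differed by 0.15 (SE 0.35). Of 11649 genes 0% were called, 482 had an unadjusted p under 0.05 and DESeq2 called 0. At 12 h KRT16 was at 7.02, 4.21, 2.21 and 2.03 in DMSO and at 2.62, 2.09, 1.27 and 0.536 in CB-6644, each below the control of the same number (-1.33, SE 0.58, adjusted p = 0.998). KRT15 was at 22.3, 21.8, 6.22 and 7.46 in DMSO and at 10.1, 9.63, 6.17 and 4.83 in CB-6644, again each below its control (-0.98, SE 0.44, adjusted p = 0.998). Of 12204 genes 0% were called, 473 had an unadjusted p under 0.05 and DESeq2 called 20, neither keratin among them.

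Labelled shares and all reads in AsPC-1 gave no keratin call with CB-6644 either. At 4 h limma called 0% of 11791 genes in the share, with 2675 at an unadjusted p under 0.05. The share of KRT4 was 26.8%, 10.9%, 0%, 14.3% and 0% in the 5 DMSO libraries and 0% to 3.85% in CB-6644, so the groups overlapped (-2.19, SE 0.80, unadjusted p = 0.0201, adjusted p = 0.167). KRT15 and KRT16 differed in share by -0.04 (SE 0.30) and -0.49 (SE 0.44). In all reads at 4 h edgeR called 0% of 13891 genes, 267 had an unadjusted p under 0.05 and DESeq2 called 5. KRT17 was at 0.0632 to 0.105 CPM in DMSO, on 8 to 14 counts, and at 0.0987 to 0.351 in CB-6644, on 11 to 39 (1.28, SE 0.45, unadjusted p = 0.0149, adjusted p = 0.994). KRT4, KRT13, KRT15 and KRT16 were at -0.88 (SE 0.80), -0.81 (SE 0.59), 0.03 (SE 0.23) and -0.09 (SE 0.26). At 12 h edgeR called 0% of 14398 genes in all reads, 325 had an unadjusted p under 0.05 and DESeq2 called 19, and limma called 0% of 12331 in the share, with 574 at an unadjusted p under 0.05. The all-reads values were -1.22 (SE 0.57) for KRT16, -0.64 (SE 0.30) for KRT15 and -0.43 (SE 0.60) for KRT4. KRT6A, KRT13, KRT14 and KRT17 were at -0.31, -0.44, -0.39 and -0.14, with SEs of at least 0.99, and their reads came mostly from library 2 of each group, which stood apart. The shares at 12 h differed by -0.24 (SE 0.29) for KRT15, -0.17 (SE 0.23) for KRT16, 1.49 (SE 1.28) for KRT13 and 0.35 (SE 1.06) for KRT17.

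The interaction of line and CB-6644 at 4 h was -0.76 (SE 0.45) for KRT15 and -0.30 (SE 0.89) for KRT16. Of 13963 genes 0% were called, 511 had an unadjusted p under 0.05 and DESeq2 called 4.

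CDK9 inhibition with NVP-2 was examined in T3M-4. Relative to the library's T>C total, KRT5 and KRT17 rose, and KRT4, KRT6A, KRT6B and KRT16 lay below both controls within each experiment without passing the test, as did 40.6% of all genes. The labelled share of 7 keratins fell, and KRT5 and KRT17 were the exceptions. The T>C total itself was 1.80% to 2.80% of all reads in NVP-2 and 11.1% to 14.1% in DMSO, so a rise in T>C CPM is a rise relative to other new RNA. Fold changes from edgeR used further scaling between libraries (TMM). For KRT5, KRT6A, KRT13, KRT14 and KRT17 they lay above the ratio of the mean T>C CPM. Scaled by all reads, all 9 fold changes were below 0.

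KRT5, the basal type II keratin, was at 83.4, 176, 404 and 400.0 T>C CPM in DMSO and at 183, 936, 1239.6 and 1899 in NVP-2, above both controls within each experiment, as were 9.46% of all genes. The log2 fold change was 2.67 (SE 0.74, adjusted p = 0.0225), and -0.27 (adjusted p = 0.681) when scaled by all reads. KRT17 was at 279, 757, 1446 and 1308 in DMSO and at 737, 3664, 3969 and 4372 in NVP-2, with the low NVP-2 library 1.1 beneath the DMSO library 1.2. The log2 fold change was 2.39 (SE 0.66, adjusted p = 0.0216), and -0.51 (adjusted p = 0.388) when scaled by all reads. These 2 of 9 keratins were called higher, where 12.4% of 12242 genes were and the median log2 fold change was -0.12. The call of KRT5 was lost without the DMSO library 1.1 (adjusted p = 0.0547), without the DMSO library 1.2 (0.0685) and without the NVP-2 library 2.2 (0.0609), and that of KRT17 without the DMSO library 1.2 (0.0649) or the NVP-2 library 2.2 (0.0531).

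KRT13 was at 1292, 3641, 2099 and 2018 T>C CPM in DMSO and at 2165, 2648, 3377 and 3383 in NVP-2 (log2 fold change 0.99, SE 0.38, adjusted p = 0.0798, and -2.0 when scaled by all reads). KRT13 was called higher without the DMSO library 1.2 (log2 fold change 1.31, adjusted p = 0.0435) or the NVP-2 library 1.1 (1.13, adjusted p = 0.0473). KRT14, the partner of KRT5, was at 87.3, 153, 252 and 224 in DMSO and at 118, 215, 268 and 317 in NVP-2 (0.99, SE 0.46, and -1.93 when scaled by all reads). KRT15 differed by 0.49 (SE 0.29, and -2.42 when scaled by all reads). KRT6A was at 399, 341, 541 and 509 in DMSO and at 153, 89.5, 312 and 289.7 in NVP-2, with no overlap between the groups (-0.40, SE 0.46, adjusted p = 0.559). KRT4 was at 7.33 to 21.9 in DMSO and at 0.507 to 5.92 in NVP-2, also without overlap (-1.26, SE 0.71, adjusted p = 0.222). These 2 of 9 stand beside 32.6% of all genes whose NVP-2 libraries were all below DMSO. KRT6B and KRT16 differed by -0.49 (SE 0.72) and -0.72 (SE 0.77).

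In the labelled share KRT16 went from 15.7% to 24.4% in DMSO to 0.767% to 1.89% in NVP-2 (log2 odds difference -4.20, SE 0.37, adjusted p = 3.09e-05). KRT4 went from 7.34% to 14.7% to 0.131% to 0.637% (-4.76, SE 0.53, adjusted p = 7.03e-05) and KRT6A from 9.16% to 12.9% to 0.816% to 1.15% (-3.68, SE 0.31, adjusted p = 2.52e-05). The median of all genes was -3.64. KRT6B, KRT15, KRT14 and KRT13 fell by 3.89, 2.78, 2.05 and 2.05 on the log2 odds scale. The 7 calls among 9 keratins stand beside 93.3% of the 12725 genes called lower, and the absence of overlap in the same 7 beside 89.1%. KRT5 was at 11.2%, 12.5%, 11.4% and 10.9% in DMSO and at 2.67%, 15.6%, 5.96% and 9.56% in NVP-2 (-0.76, SE 0.56, adjusted p = 0.213). KRT17 was at 13.0%, 13.1%, 16% and 17% in DMSO and at 5.63%, 15%, 7.14% and 9.42% in NVP-2 (-0.85, SE 0.40, adjusted p = 0.0712). For both, library 1.2 stood highest, and the share in 1.1 was the lowest. With T>C counts scaled by all reads, the same 7 keratins were called lower, by 1.93 (KRT14) to 4.23 (KRT4) on the log2 scale below their controls, where 86% of genes were called lower and the median was -2.97. In all reads none of the 9 was called, with fold changes from 0.01 (KRT6A, SE 0.30) to 0.48 (KRT6B, SE 0.44), where 5.16% of 15653 genes were called in either direction.

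**Figure D5:**
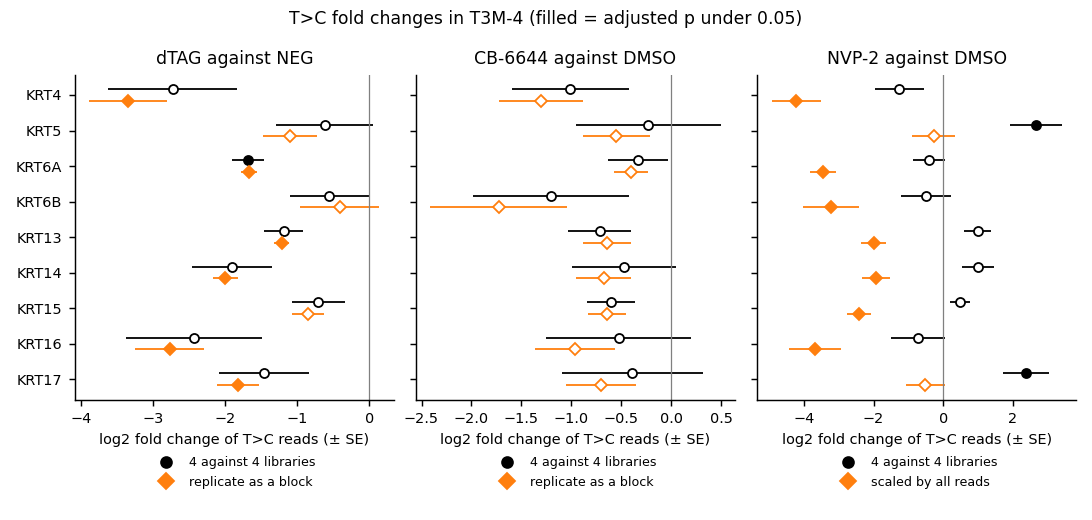
Log2 fold change of T>C reads (± SE) of each keratin in T3M-4 for dTAG against NEG, CB-6644 against DMSO and NVP-2 against DMSO, 4 against 4 libraries. Black circles are the main fit, orange diamonds the fit with library number as a block (left and centre) or scaled by all reads (right), and filled symbols have an adjusted p under 0.05; 6 diamonds are filled for dTAG and none for CB-6644, and for NVP-2 the circles of KRT5 and KRT17 are filled above 0 where their diamonds are open and below 0.

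In AsPC-1, NVP-2 gave no call for KRT15 or KRT16 in T>C reads, where 30.5% of 11498 genes were called in either direction. KRT15 was at 9.38, 11.5, 7.21 and 8.03 T>C CPM in NVP-2 and at 5.01 to 14.9 in DMSO (log2 fold change 0.61, SE 0.40, and -2.34 when scaled by all reads). KRT16 was at 0.569, 2.43, 0.343 and 0.446 in NVP-2 and at 1.35 to 3.41 in DMSO (-0.73, SE 0.71, adjusted p = 0.47), where library 1.2, which stood apart, was the high one. The labelled shares of 4 keratins were called lower, beside 96.7% of 11353 genes. KRT15 was at 1.23% to 1.54% against 7.43% to 12.4% in DMSO (log2 odds difference -2.91, SE 0.25) and KRT16 at 0.237% to 1.29% against 3.65% to 13.1% (-4.00, SE 0.50), without overlap, as was seen in 92% of these genes. The other calls were KRT4 (-4.17, SE 0.70) and KRT13 (-3.37, SE 0.91), on few counts. KRT4 had 0 T>C counts in all 4 NVP-2 libraries and 94 in the DMSO libraries together. It met the minimum mean count only through DMSO and its value depends on the pseudocount, so its call supports nothing beyond these counts. The KRT13 value rests on library 1.2, with 107 T>C counts where the other NVP-2 libraries had 0, and without that library KRT13 was too low to be tested and 3 of 3 keratins were called. The median of all genes was -3.43. The NVP-2 libraries of this line were labelled batch 2 and the DMSO libraries at 4 h batch 1, so batch and treatment cannot be told apart. Against the NEG libraries of batch 2 the shares of KRT15 and KRT16 were again called lower, whereas that of KRT13 differed by -0.48 (adjusted p = 0.645). In all reads KRT17 was called higher (3.07, SE 0.81, adjusted p = 0.0332), where 3.43% of 14095 genes were called higher, but without the library 1.2 that stood apart it was not (1.31, adjusted p = 0.156). KRT13 was at 4.22 (SE 1.37, adjusted p = 0.0703), with library 1.2 alone above the controls, and KRT4, KRT15 and KRT16 were at -0.94 (SE 0.83), 0.49 (SE 0.21) and 0.06 (SE 0.26). The interaction of line and NVP-2 was -0.15 (SE 0.48) for KRT15 and -0.02 (SE 1.28) for KRT16, not called, where 0.851% of 13159 genes were.

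Other genes of stratified epithelium were set beside the keratins by lists. After dTAG in T3M-4, 0.745% of all genes were called lower. The 15 measured genes that anchor keratins in desmosomes and hemidesmosomes had a median T>C log2 fold change of -0.73, beside 0.01 for all genes, and 1 was called lower. That was JUP (plakoglobin), at 120 to 142 CPM against 190 to 251 (-0.88, SE 0.17, adjusted p = 0.0438). Of the cornified envelope list 10 of 11 genes were tested, with a median of -1.72, and PPL (periplakin) fell from 10.3 to 22.7 CPM to 2.29 to 5.56 (-2.05, SE 0.36, adjusted p = 0.0306). The 4 simple keratins tested had a median of -0.92 with none called. KRT18 was at -0.97 (SE 0.26, adjusted p = 0.171) and KRT19 at -0.87 (SE 0.30, adjusted p = 0.424). Of 10 stratified epithelium transcription factors 1 was called, KLF5, higher by 0.90 (SE 0.15), where 0.0894% of all genes were called higher. Of 12 other stratified keratins 2 were tested, KRT80 and KRT10, at -0.23 (SE 0.35) and 0.08 (SE 0.26).

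In AsPC-1 after dTAG, 1.94% of 11696 genes were called lower. The simple keratins KRT18 (-0.84, SE 0.18, adjusted p = 0.0117) and KRT19 (-0.69, SE 0.15, adjusted p = 0.0105) fell, 2 of 4 tested. Of the anchorage list 5 of 12 fell, among them PLEC (plectin, -0.83) and ITGB4 (integrin beta 4, -0.95), with a list median of -0.46 beside 0.03 for all genes. With CB-6644 no gene of these lists was called in either line. After NVP-2 in T3M-4, 14.2% of all genes were called lower in T>C reads and 12.4% higher. Of 10 stratified epithelium transcription factors 9 were called lower, such as KLF4 (-3.27, SE 0.55) and SOX2 (-3.79, SE 0.75), with a median of -2.29. Of the anchorage list 3 of 15 were called higher, with COL17A1 at 1.91 (SE 0.29), and 2 lower, with PLEC at -2.09 (SE 0.32). Of the cornified envelope list 2 of 9 were called higher, SPRR2A at 1.98 (SE 0.29) and SPRR2D at 1.48 (SE 0.27). These NVP-2 fold changes, as those of the keratins, are relative to other new RNA after TMM scaling.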

How the data were processed

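SLAM-seq 3′ end libraries of AsPC-1 and T3M-4 cells were used. The authors aligned single-end reads to hg38 and counted them with slamdunk at default parameters over GENCODE v44 3′UTR exons. The deposited tables, 1 of T>C reads and 1 of all reads for each line, give raw counts per gene as whole numbers. There was no spike-in and no library without 4-thiouridine. All-reads values of dTAG library 3.1 in AsPC-1 were left out, because that column repeats another. Groups, times, batches and replicate numbers came from the labels.

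CPM is the count per 1000000 of a library's own T>C or all-reads total, with no further scaling. Counts were tested in R 4.3.3 with edgeR 4.0.16 (filterByExpr, TMM, quasi-likelihood test, each treatment with its own control only, no block), and called at a Benjamini-Hochberg adjusted p under 0.05 over all genes tested. DESeq2 1.42.0 was the alternative. Labelled shares were tested with limma 3.58.1 (trend) on log2((T>C + 0.5)/(other reads + 0.5)), over genes with a mean T>C count of at least 10. Lines were compared by an interaction term. The SE of an edgeR fold change was derived from its F statistic. The 95% intervals use a normal multiplier of that SE, so with few libraries they are approximate and somewhat too narrow. Low-count genes carry large errors from counting alone.

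The keratins, the gene lists and the tests were chosen with earlier results of these data known. The tested keratins are named in each treatment comparison or given by their range, in line differences KRT15 and KRT16 only, and of each list at most 4 called genes by smallest p, or else the 2 of highest mean level. For KRT5, KRT6A and KRT17 the 3 genes of most similar pattern were sought, and 1 of these is not reported here.

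Pairing by library number was checked by the correlation, over genes, of same-numbered libraries' deviations from their group means. Every pair exceeded 0.1 for dTAG in T3M-4 (lowest 0.294), dTAG in AsPC-1 (0.252), CB-6644 in T3M-4 (0.219) and CB-6644 12 h in AsPC-1 (0.244). There the number was taken to pair libraries. In these, 3 of 4, 5 of 10, 1 of 4 and 2 of 4 libraries correlated best with their own number. The groups treated for 4 h spanned experiments, and libraries of the same experiment may deviate together whatever their number. At 4 h the check therefore cannot tell pairing by number from a shared experiment. The alternatives were RLE size factors, no low-count filter, scaling by all reads, other share settings, a block on number or experiment, single batches, another control group, and leaving out libraries. The fit without the 5 AsPC-1 libraries that stood apart was chosen after seeing the data.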

Additional observations from a re-analysis of the deposited data

Results flagged for a closer look

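In groups of 4 to 10 libraries, 130 sets of keratin values were examined for a library far from the others, and 14 had one, where chance alone gives about 1 in 20. Of the 14 far values, 11 were in the 5 AsPC-1 libraries that stood apart in all reads. For KRT13 T>C CPM these were dTAG 3.2 at 9.30, NEG 3.2 at 6.90, CB-6644 12 h 2 at 5.37, DMSO 12 h 2 at 7.54 and NVP-2 1.2 at 37.1, on 77 to 131 T>C counts. For KRT17 T>C CPM they were CB-6644 12 h 2 at 2.37, DMSO 12 h 2 at 2.54 and NVP-2 1.2 at 15.6. In the NVP-2 library 1.2 the labelled share was 5.91% for KRT13 and 11.9% for KRT17, where the other NVP-2 libraries of AsPC-1 had 0 T>C counts. The KRT15 share of the CB-6644 12 h library 2 was 11.4%, and the nearest other library was at 8.74%.

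The remaining 3 were in libraries that did not stand apart. The KRT13 share of the AsPC-1 dTAG library 1.3 was 33.3%, on 2 T>C counts, and that of the NEG library 1.4 was 42.9%, on 12 T>C counts. In T3M-4 the KRT14 share of the dTAG library 1.2 was 4.39%, on 459 T>C counts, and the nearest other dTAG library was at 3.17%. It still lay below every NEG library, the lowest of which was at 8.16%.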

How the results depend on the processing

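With the library number as a replicate block, the number of keratins called in T>C reads went from 1 to 6 for dTAG in T3M-4, and the block on experiment also gave 6, DESeq2 4, and batch 1 or batch 2 alone 3 each. Over all genes the count went from 112 to 298 with the replicate block and to 340 with DESeq2. For dTAG in AsPC-1 the 1 keratin called in T>C reads, KRT16, became 0 in batch 1 or batch 2 alone, where fewer libraries were fitted, and over all genes 281 calls became 867 with the replicate block, 478 with DESeq2 and 1190 scaled by all reads, where 10 were higher and 1180 lower against 54 and 227, and the median log2 fold change moved to -0.24. Its 1 call in all reads became 0 with no low-count filter and without the libraries that stood apart, and leaving out 1 library gave 0 to 1. With the replicate block that call held (-0.96, adjusted p = 0.000739), and the block changed no call of CB-6644.

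For NVP-2 same-numbered libraries did not all deviate together, with a lowest correlation of 0.0613 in T3M-4, where 2 of 4 libraries correlated best with their own number, and -0.112 in AsPC-1. In T3M-4 the 2 T>C calls became 4 with the replicate block, 4 in batch 2 alone, 1 in batch 1 alone and 0 to 3 when 1 library was left out. Scaled by all reads they became 7, all lower, and KRT5 (-0.27), KRT13 (-2.0), KRT14 (-1.93), KRT15 (-2.42) and KRT17 (-0.51) reversed, as did KRT15 in AsPC-1 (-2.34). In AsPC-1 the 0 T>C calls became 2 with no low-count filter and 2 scaled by all reads. There the 4 share calls became 2 with the NEG libraries of batch 2 as control and 3 to 4 when 1 library was left out. The 1 all-reads call, KRT17, became 0 with the replicate block, 0 without the libraries that stood apart, and 0 to 2 when 1 library was left out. The line difference of NVP-2 went from 0 keratins to 1 (KRT6A) with no low-count filter and 2 (KRT6A and KRT17) with the replicate block, and 0 to 1 when 1 library was left out. These calls rest on 3 (KRT6A) and 5 (KRT17) T>C counts in the AsPC-1 DMSO libraries and, with NVP-2, on library 1.2, which stood apart (18 and 45 counts). Leaving out 1 library moved KRT6A from -7.72 to 1.86 and KRT17 from -4.09 to 5.28, so they support nothing. The causes of these shifts were not tested.

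Of 28 counts of keratins called, 20 stayed within 1.5 times of the value given under every alternative run. Most of these were counts of 0 that stayed 0, among them all those of CB-6644 and of NEG against DMSO. Of the counts above 0, those that stayed were the labelled share for dTAG in AsPC-1 and for NVP-2 in T3M-4, and the tests between the lines. Depth limits KRT4, KRT6B and KRT16 most, and in AsPC-1 all keratins but KRT15 and KRT16 were near 0 T>C counts. Without a spike-in, amounts of new RNA per cell were not measured, and in bulk libraries fewer cells making a keratin and less RNA per cell cannot be told apart. The floor of 3 counts covers counting error only, whereas the 95% intervals of fold changes come from the spread between libraries.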

Other observations

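Over the 16 T3M-4 libraries that did not receive NVP-2, log2(T>C CPM + 1) of the keratins varied together. Pearson correlations were above 0 in 36 of 36 pairs, from 0.271 to 0.965 with a median of 0.778. The closest pairs were KRT5 with KRT17 (0.965), KRT4 with KRT14 (0.964) and KRT14 with KRT16 (0.951). The libraries share experiments, treatments and depth, so these values describe this set only.

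Among 9711 genes other than keratins with a mean of at least 5 T>C CPM, those whose T>C level most resembled that of KRT5 over the same 16 libraries were CORO1A (r = 0.974), LRRC59 (0.961) and UNC13D (0.944). For KRT17 they were UNC13D (0.960), NIBAN2 (0.958) and MFAP5 (0.956). For KRT6A they included LRRC8A (0.975) and the laminin chain gene LAMA3 (0.968).

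The summed all-reads level of the simple keratins KRT7, KRT8, KRT18, KRT19, KRT20 and KRT23 was 3049 to 9610 CPM in AsPC-1 and 1397 to 2570 CPM in T3M-4, on account of KRT8 and KRT18. KRT7 was the other way round, at 345 to 1083 CPM in T3M-4 against 1.03 to 11.3 in AsPC-1, and KRT19 overlapped, at 330 to 1089 against 333 to 1139. Between the solvent-treated lines, 8 of 9 tested cornified envelope genes and 9 of 10 stratified epithelium transcription factors were called higher in T3M-4 in T>C reads, with list medians of 8.08 and 4.91 on the log2 scale beside 0.11 for all genes, of which 26.8% were called higher. In all reads SPRR2D, TFAP2C and ZNF750 were at 0 in 31, 36 and 38 of the 41 AsPC-1 libraries. Such genes passed the filter on low counts only through T3M-4, so these counts and medians support nothing beyond their levels. After NVP-2 in AsPC-1, edgeR called 17.6% of 11498 genes lower in T>C reads and 12.9% higher. The transcription factors KLF4 (-3.26, SE 0.50) and TFAP2A (-1.19, SE 0.27) were called lower, 2 of 5 tested. Of the anchorage list 3 of 13 were called higher, among them COL17A1 (1.38, SE 0.27) and PERP (1.44, SE 0.32), and 1 lower. These values are relative to other new RNA after TMM scaling, and batch and treatment cannot be told apart in them.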
